A study of Mus musculus with 25 samples.

Results

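The 35 genes described here carry out glycolysis or belong to the cellular response to low oxygen. They were a fixed list: 15 glycolytic enzymes, 6 transporters and flux regulators, and 14 genes of oxygen sensing or targets of the hypoxia-inducible factor (HIF). Of the 35, 33 had a probe set that the array annotation assigned to a single gene, and Gpi1 and Eno1 had none named here. For each gene the probe set with the highest mean value was used, and a gene was kept when it was called present (P) on at least 2 arrays of one group. By this filter 31 members were kept, namely 12 enzymes, all 6 transporters and regulators, and 13 oxygen sensing or HIF genes, among 8341 genes kept of 18194 on the array. Aldoc and Egln3 were not kept.

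The cells were CD11b+ cells sorted by their Ly6C level (High, Intermediate or Low) from mouse kidney (C57BL/6 males, 8 to 10 weeks old), after 28 min of bilateral renal ischemia and reperfusion or after sham surgery. All animals received saline and buprenorphine, and the labels name no transgene. The 8 groups were sham High, sham Intermediate and sham Low (n = 2 each; the labels state no time for sham arrays), 4 h High, 4 h Intermediate, 24 h Intermediate, 9 day Intermediate and 9 day Low (n = 3 each). The number in a sample's label was read as its animal, so that several gates at 4 h, at 9 days and after sham surgery came from the same kidneys. Another 3 arrays carried one shared label, sham 58 High, and entered no comparison. The RNA was amplified as a whole transcriptome before hybridisation to Affymetrix arrays.

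Glycolysis breaks glucose down to pyruvate in the cytosol, and lactate dehydrogenase turns pyruvate into lactate when respiration cannot use it. When oxygen is short, prolyl hydroxylases stop marking the HIF alpha subunits for degradation, and HIF then binds short DNA elements and raises transcription of glucose transporters, glycolytic enzymes, regulators of mitochondria and its own inhibitors. Neutrophils and inflammatory monocytes are known to depend heavily on glycolysis, and ischemic kidney is a site where HIF is stabilised.

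The arrays differed widely in yield, and this touches every member. Between 1.99% and 40.0% of all probe sets were called P on an array. The 3 arrays under 5%, called arrays of low yield below, were sham High 1 (1.99%), 9 day Intermediate 8 (3.295%) and 9 day Intermediate 13 (4.67%), and the other 18 arrays lay at 10.1% or above. Sham High and 9 day Intermediate therefore had 1 array each of ordinary yield. The 3′ to 5′ signal ratio of the Gapdh control probe sets, a sign of RNA integrity, was 431.2 on sham Intermediate 1, 298.2 on sham High 1 and between 0.923 and 28.3 on the others. The same ratio of the actin control probe sets was 182.8 on sham Intermediate 1 and 13.36 on sham High 1. It was 51.75 on 9 day Intermediate 8, where the Gapdh ratio was 0.923, and 22.06 on 9 day Intermediate 13. On the others the actin ratio was 1.58 to 7.92. The part of these ratios in the results was not tested. The label calls the cells macrophages. Tissue macrophage markers were called P for 5 to 9 of 10 genes on 24 h Intermediate arrays and for all 10 on every 9 day Low array, while 12 of the 13 named neutrophil markers were called P on every 24 h Intermediate array. Of 10 kidney tubule markers, all 10 were called P on both sham Intermediate arrays, 1 to 6 on 24 h Intermediate arrays and at most 1 on 9 day Intermediate arrays. In such bulk samples, fewer cells of a type and less RNA per cell cannot be told apart. One 4 h High array, 30, also has a description line that names 9 days; it was kept under its 4 h label.

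Start-site sequences were available for 33 members, with Ndrg1 and Slc2a3 the exceptions. The core of the element that HIF binds was searched as ACGTG or GCGTG on either strand (read as CACGT or CACGC on the printed strand; CACGTG matches in both directions with overlap). It was present in 39 of the 49 member promoters (79.6%), each spanning 250 bases before to 50 after a RefSeq start. The shares were 18 of 23 for enzymes, 6 of 7 for transporters and regulators and 15 of 19 for oxygen sensing and HIF genes. Among promoters of all genes tested 61.4% held a match, and 43.8% of all 32851 promoters in the table did. A match describes the letters only and does not show binding. Below, the promoters of 4 members whose values are described at length are shown 5′ to 3′ on the gene's strand, from RefSeq on GRCm38.p6, with matches in capitals: Hilpda at its second listed start, on chr6:29272376-29272675 (plus strand, 3 matches), Bnip3 on chr7:138909457-138909756 (minus strand, 5 matches), Slc16a3 on chr11:120948817-120949116 (plus strand, 2 matches) and Hk2 on chr6:82774405-82774704 (minus strand, 2 matches).
Hilpda: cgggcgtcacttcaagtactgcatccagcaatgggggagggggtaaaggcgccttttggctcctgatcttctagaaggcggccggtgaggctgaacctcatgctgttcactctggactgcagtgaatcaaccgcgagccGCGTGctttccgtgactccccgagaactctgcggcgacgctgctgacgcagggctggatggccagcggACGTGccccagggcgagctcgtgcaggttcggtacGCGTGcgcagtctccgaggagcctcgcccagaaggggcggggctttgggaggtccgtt
Bnip3: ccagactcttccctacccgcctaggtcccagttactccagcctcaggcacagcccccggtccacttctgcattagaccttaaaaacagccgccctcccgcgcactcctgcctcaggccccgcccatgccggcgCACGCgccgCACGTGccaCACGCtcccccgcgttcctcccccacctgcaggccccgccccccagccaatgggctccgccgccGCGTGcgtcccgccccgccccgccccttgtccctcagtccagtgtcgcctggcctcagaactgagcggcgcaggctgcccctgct
Slc16a3: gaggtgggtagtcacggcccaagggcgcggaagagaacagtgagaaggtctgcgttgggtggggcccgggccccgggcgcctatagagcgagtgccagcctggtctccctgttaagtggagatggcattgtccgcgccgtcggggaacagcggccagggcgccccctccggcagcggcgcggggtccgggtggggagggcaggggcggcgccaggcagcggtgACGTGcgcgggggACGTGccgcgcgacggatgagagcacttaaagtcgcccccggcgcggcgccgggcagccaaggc
Hk2: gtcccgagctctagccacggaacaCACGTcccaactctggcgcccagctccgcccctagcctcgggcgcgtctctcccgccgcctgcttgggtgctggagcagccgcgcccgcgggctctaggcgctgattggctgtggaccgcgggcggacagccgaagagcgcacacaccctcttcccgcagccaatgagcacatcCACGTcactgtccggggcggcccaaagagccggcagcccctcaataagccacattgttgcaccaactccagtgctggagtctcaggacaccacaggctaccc

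The element cores lay in different places in the 4 windows. In Bnip3, matches in both directions stood close together, and in Slc16a3 both were near the start. The first Hilpda start, on chr6:29272238-29272537, held 1 match.

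Whether a member was called P followed the array's yield. On the 3 arrays of low yield only 2, 5 and 7 of the 31 members were called P, against 13 to 29 on the other arrays. The enzymes were the most often detected of the roles. All 12 were called P on each 9 day Low array, where 64.7%, 78.7% and 85.8% of all genes tested were. The filter in part sets this count: Hk2 was kept only through these arrays, and Aldoc, called P on none of them, was not kept. Transporters and regulators were least even: none of the 6 was called P on sham High 2, and all 6 were on 24 h Intermediate 7, 9 day Low 13 and both sham Low arrays. Values on a probe set not called P are bounds rather than levels, and were kept in every test.

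**Figure D1:**
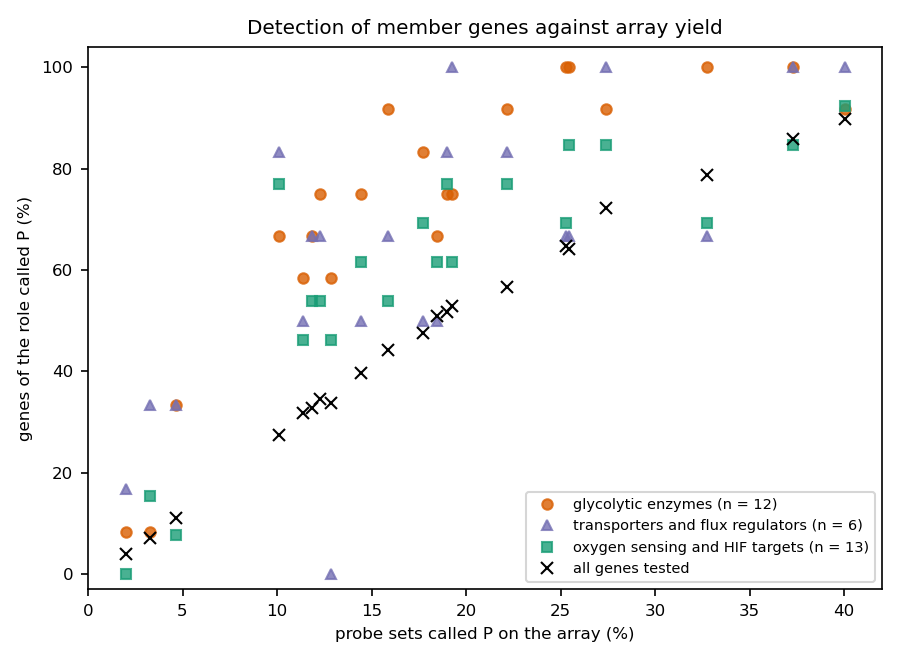
Share of the kept members of each role that were called P (vertical axis, %) against the share of all probe sets called P on the same array (horizontal axis, %), with all 8341 genes tested as crosses; each of the 21 arrays gives 1 point per role. The 3 arrays under 5% have at most 7 of 31 members called P. All 12 kept enzymes are called P on the 9 day Low arrays, which the filter on detection in part sets.

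The first test asked whether any member differed among the 8 groups. In the limma F test 1 of 31 members passed an adjusted p under 0.05, against 3.94% of all genes tested. That share is close to the background and is not a result about the list. The member was Hilpda (adjusted p = 0.0331), whose protein coats lipid droplets and inhibits the lipase that empties them. Its call was kept in 20 of 31 alternatives and lost in 11, among them the deposited signals (adjusted p = 0.0973), quantile normalization (0.0701), array weights (0.0682) and leaving out the arrays of low yield (0.0662). The next smallest adjusted p values were 0.0816 for Slc2a3, 0.0885 for Bnip3 and 0.130 for Ndrg1. For 8 other members described below they lay between 0.212 (Higd1a) and 0.865 (Pfkfb3), and the groups' spread was wide: the median residual SD over all genes was 1.635 on the log2 scale.

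Hilpda was high in 24 h Intermediate cells. Its log2 values there were 10.70, 13.05 and 10.90. In 4 h Intermediate cells they were 7.70, 5.03 and 8.39, and in sham Intermediate cells 8.26 and 7.48. In 9 day Intermediate cells they were 3.35, 7.61 and 5.08, of which only the 7.61, from the array of ordinary yield, was called P. All 3 arrays at 24 h therefore lay above every other Intermediate array, and Hilpda was the single member whose 24 h values exceeded those of all the other 18 arrays. By this measure 50 of all genes tested (0.599%) did the same. It held in the deposited signals, after quantile normalization and after centring each array, as well as in the values used here.

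In the Ly6C High and Low gates Hilpda stayed lower. The 4 h High values were 8.43, 7.30 and 7.13, and the 9 day Low values 8.40, 6.28 and 8.26. Sham Low gave 8.40 and 6.02, and sham High gave 3.70 and 4.20, neither called P. Among arrays called P, the groups other than 24 h Intermediate overlapped one another.

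The fall of Hilpda from 24 h to 9 days in the Intermediate gate was the single pairwise difference that passed the test for a member. The log2 difference was -6.20 ± 1.14 (SE, n = 3 and 3), a fold of 73.6, with a limma adjusted p of 0.0241; 0.384% of all genes were called in that comparison, and 30 of the 32 called were lower at 9 days. At unadjusted p under 0.05 there were 7 members of 31, against 11.5% of all genes. The groups did not overlap; Bnip3 and Higd1a, described below, were the other members lower without overlap, as were 8.02% of all genes. Of the 9 day arrays, 8 and 13 were those of low yield: without them the difference was -3.94 with an adjusted p of 0.266. The call was also lost on the deposited signals (adjusted p = 0.0864) and without any single 24 h array or 9 day Intermediate 8 or 13 (adjusted p 0.0558 to 0.126). Marker transcripts were also lower at 9 days. The log2 summed level of the 13 neutrophil markers was 16.50 to 16.78 at 24 h and 15.24 to 15.84 in 9 day Intermediate cells. That of the 10 tubule markers was 11.97 to 12.92 and 7.84 to 9.25. In 4 h and sham Intermediate cells, where Hilpda was lower than at 24 h, the neutrophil level was 16.18 to 16.57 and 16.3 to 16.5. The tubule level there was 13.78 to 14.27 and 14.74 to 15.02, above that at 24 h. The part of these transcripts in the Hilpda difference was not tested.

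Other differences of Hilpda against 24 h Intermediate were smaller than this fall and did not pass. Against 4 h Intermediate the 24 h mean was higher by 4.51 ± 1.14 (adjusted p = 0.217), a fold of 22.8, and against 4 h High by 3.93 ± 1.14 (adjusted p = 0.300). Against sham Intermediate it was higher by 3.68 ± 1.28 (adjusted p = 0.279). The 9 day Low mean differed from the 24 h mean by -3.90 ± 1.14 (adjusted p = 0.0630), and this difference passed in 7 of 31 alternatives, among them without the arrays of low yield (adjusted p = 0.0397). In each of these 4 pairs the groups did not overlap. Of all genes, 6.65% were likewise higher at 24 h than in 4 h Intermediate and 6.05% than in 4 h High cells. Against sham Intermediate it was 10.7% and against 9 day Low 10.9%. Of 31 alternative settings, none brought the 24 h against 4 h Intermediate difference past the threshold, and none turned its direction. The 4 h High mean exceeded sham High by 3.67 ± 1.28 (adjusted p = 0.206). Hilpda was called P on neither sham High array, and sham High 1 was an array of low yield. On the sham 58 High arrays, which entered no comparison, it was called P at 7.47, 6.42 and 6.06, overlapping the 4 h High values.

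Bnip3, a receptor that directs mitochondria to autophagy, had a flatter course with the lowest values on arrays of low yield. Its 24 h Intermediate values were 10.36, 12.02 and 11.07, and the 4 h Intermediate values 10.18, 10.41 and 9.52. The 9 day Intermediate values were 4.98, 9.15 and 5.87, of which the 9.15 was called P. The 9 day mean was below the 24 h mean by a log2 difference of -4.48 ± 1.08 (adjusted p = 0.0740), with no overlap. Sham High gave 4.77 and 8.46 and 4 h High gave 10.77, 9.26 and 11.26, a difference of 3.82 ± 1.21 (adjusted p = 0.165). In both comparisons the lowest values, 4.77, 4.98 and 5.87, were those of the 3 arrays of low yield.

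Higd1a, a small protein of the inner mitochondrial membrane, was likewise lowest on the arrays of low yield, at 3.39 on sham High 1 and 2.85 and 5.74 on 9 day Intermediate 8 and 13. The 4 h Intermediate values, 11.70, 11.35 and 11.46, were close together, and those at 24 h were 9.89, 12.00 and 11.17. At 9 days the Intermediate values were 2.85, 9.88 and 5.74. The 9 day minus 24 h difference was -4.86 ± 1.65 (adjusted p = 0.215), and the array of ordinary yield, 9.88, lay just below the lowest 24 h value. The 9 day Low values, 9.11, 9.54 and 9.13, lay below all 4 h High values, 10.66, 11.67 and 10.70, as those of 13.1% of all genes did. The mean difference was -1.75 ± 1.65 (adjusted p = 0.661), which turned to 0.45 with the mean of the Higd1a probe sets. Its other 2 probe sets were called P on 8 and 1 of 21 arrays and differed by 0.20 and 0.63 in the 9 day minus 24 h comparison.

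Ndrg1, a stress-response gene induced by low oxygen, had the opposite course to Hilpda at 24 h. The sham Intermediate values were 12.00 and 12.78, and the 4 h Intermediate values 11.09, 10.39 and 11.32. At 24 h they were 8.85, 7.79 and 4.54, with the 4.54 not called P, and at 9 days 4.09, 9.17 and 5.55, with only the 9.17 called P. No 24 h value reached any sham or 4 h Intermediate value. Without overlap, 14.2% of all genes were lower at 24 h than in sham and 7.3% than in 4 h Intermediate cells.

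The 24 h minus sham difference of Ndrg1 was -5.33 ± 1.75 (adjusted p = 0.235), and 1 of 31 alternatives brought it past the threshold, leaving out the arrays of low yield (adjusted p = 0.0293), none of which is in either group; in the others the adjusted p reached 0.551. The 9 day minus sham difference was -6.12 ± 1.75 (adjusted p = 0.129). All 5 Ndrg1 probe sets had lower means in 24 h and in 9 day Intermediate cells than in sham Intermediate cells. Kidney tubule transcripts moved alongside: the log2 of their summed level was 14.74 to 15.02 in sham Intermediate, 13.8 to 14.3 in 4 h Intermediate, 12.0 to 12.9 in 24 h Intermediate and 7.84 to 9.25 in 9 day Intermediate cells. Lrp2, Cubn, Aqp2 and Slc12a3 were called P on no 24 h array. Their part in the Ndrg1 differences was not tested.

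The other 9 kept genes of oxygen sensing and HIF response gave no called difference. Hif1a, the oxygen-regulated subunit itself, was called P on 18 of 21 arrays. Its 4 h High values were 12.27, 10.08 and 11.50, its 4 h Intermediate values 10.62, 10.13 and 11.62, and its 9 day Low values 5.22, 6.91 and 9.36. The 9 day Low values lay below all 4 h High values, as those of 13.1% of all genes did. The difference was -4.12 ± 1.64 (adjusted p = 0.217). Adm, which encodes the vasodilator adrenomedullin, was called P on 7 arrays and reached 9.93 and 10.45 on 4 h Intermediate 32 and 33. Ddit4, an inhibitor of mTOR signalling, was called P on 19 arrays. Egln1, Vegfa, Ankrd37, P4ha1, Kdm3a and Mxi1 were called P on 6 to 10 arrays each. Their F test adjusted p ranged from 0.419 (Mxi1) to 0.799 (Vegfa).

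**Figure D2:**
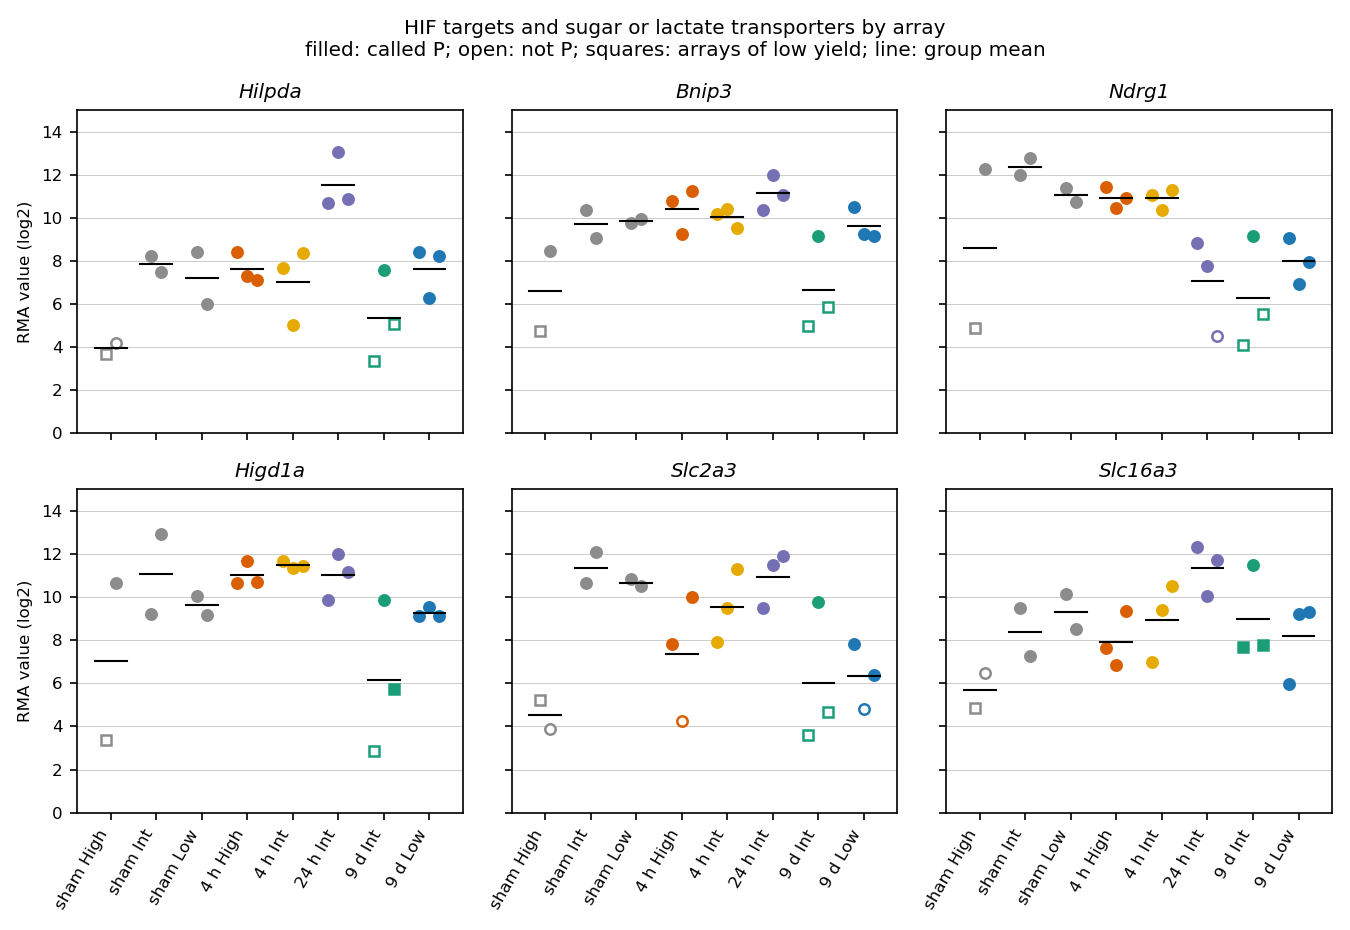
Deposited RMA value (vertical axis, log2) of 6 members on each of the 21 arrays, by group (horizontal axis); filled points were called P, open points were not, squares are arrays of low yield and lines are group means. Hilpda lies at 10.70 to 13.05 in 24 h Intermediate cells and at 8.43 or below elsewhere, while Ndrg1 is at 8.85 or below on the 24 h arrays and between 10.39 and 11.44 on the 4 h arrays.

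Among the transporters, Slc2a3 and Slc16a3 had 24 h Intermediate values above those of 9 day Low cells, and Slc16a3 also above those of 4 h High cells, without a called difference. Slc2a3 encodes GLUT3, a glucose carrier of high affinity. Its values were 9.49, 11.50 and 11.89 in 24 h Intermediate and 7.85, 4.81 and 6.37 in 9 day Low cells, with the 4.81 not called P. The groups did not overlap, and 10.9% of all genes were lower in 9 day Low cells in the same way. The Slc2a3 difference was -4.62 ± 1.56 (adjusted p = 0.104). Sham Intermediate values were 10.64 and 12.09, as high as those at 24 h, and 9 day Intermediate values were 3.58, 9.79 and 4.69. The 9 day minus sham Intermediate difference was -5.34 ± 1.74 (adjusted p = 0.193).

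Slc2a3 was measured by 4 probe sets. Those called P on 15 and 14 arrays gave 9 day Low minus 24 h differences of -4.62 and -5.18, and those called P on 0 and 3 arrays gave -1.28 and -1.79. Neutrophil transcripts were also lower in 9 day Low cells. The log2 of their summed level over 13 markers was 16.5 to 16.8 in 24 h Intermediate and 16.3 to 16.5 in sham Intermediate cells. It was 13.2 to 13.5 in 9 day Low cells, where Camp and Ltf were called P on no array. In 4 h High cells it was 15.6 to 16.3, with Slc2a3 at 7.83, 4.25 (not called P) and 10.01. In 9 day Intermediate cells it was 15.2 to 15.8. In sham High, where 8 of the 13 were called P on no array, the summed level was 14.9 to 15.6 and Slc2a3 was 5.21 and 3.88, neither called P. The part of neutrophil transcripts in the Slc2a3 differences was not tested.

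Slc16a3 encodes MCT4, which exports lactate. Its 24 h Intermediate values were 12.35, 10.07 and 11.71, and its 4 h Intermediate values 6.97, 9.39 and 10.50. The 4 h High values were 7.63, 6.84 and 9.34, all below those at 24 h, with a difference of 3.44 ± 1.28 (adjusted p = 0.438). In that pair 6.05% of all genes were higher at 24 h without overlap. In 9 day Low cells the Slc16a3 values were 5.98, 9.24 and 9.33, also below 24 h, as those of 10.9% of all genes were. The difference was -3.19 ± 1.28 (adjusted p = 0.175). The 9 day Intermediate values were 7.67, 11.51 and 7.79, and the 11.51, from the array of ordinary yield, lay inside the range at 24 h. The 2 groups at 4 h overlapped one another, as did 4 h and 24 h Intermediate (difference 2.42 ± 1.28, adjusted p = 0.764). Sham Intermediate values were 9.50 and 7.28, below all those at 24 h (difference 2.98 ± 1.43, adjusted p = 0.533), where 10.7% of all genes were higher without overlap. The log2 summed level of the neutrophil markers was close in the 3 groups: 16.5 to 16.8 in 24 h, 16.2 to 16.6 in 4 h and 16.3 to 16.5 in sham Intermediate cells. It was 15.6 to 16.3 in 4 h High and 13.2 to 13.5 in 9 day Low cells. The part of neutrophil transcripts in the Slc16a3 differences was not tested.

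Pfkfb3 and Pfkfb4 encode enzymes that make or remove the activator of phosphofructokinase. Pfkfb3 values ran from 3.86 (24 h Intermediate, not called P) to 8.20 (4 h High), and it gave the largest F test adjusted p of the 12 members described in full (0.865). Pfkfb4 was called P on none of the 4 h Intermediate arrays, where its values were 4.81, 4.35 and 4.93, and on both sham Low arrays, at 8.25 and 7.82. Its sham Intermediate values were 6.08 and 10.55, of which the 10.55 was called P, and the 4 h minus sham difference was -3.62 ± 1.44 (adjusted p = 0.576). Slc2a1, the GLUT1 glucose carrier, was called P on 20 of 21 arrays. On the arrays of ordinary yield its values ranged from 10.84 to 12.23, except for sham High 2, where it was 6.62. Pdk1, which holds pyruvate back from mitochondria, was called P on 4 arrays with its highest value, 10.22, on 24 h Intermediate 7.

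Among the glycolytic enzymes, Pkm and Tpi1 had their lowest values on the 3 arrays of low yield. Pkm, the pyruvate kinase gene, had 24 h Intermediate values of 11.79, 10.94 and 10.93 and 4 h Intermediate values of 9.80, 9.61 and 9.79. The 4 h High values were 10.01, 10.38 and 9.56, and the 9 day Low values 10.05, 10.41 and 10.84. The 24 h values lay above all of these, by 1.49 ± 1.52 against 4 h Intermediate (95% interval -1.72 to 4.70), a difference smaller than its SE. Without overlap, 6.65% of all genes were higher at 24 h than in 4 h Intermediate, 6.05% than in 4 h High and 10.9% than in 9 day Low cells. The 24 h Pkm values overlapped the sham Intermediate values, 10.63 and 11.12, with a difference of 0.34 ± 1.70, and the sham Low values, 11.42 and 10.47. On the arrays of low yield Pkm was 3.28, 5.34 and 5.05, and not called P.

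Tpi1, triosephosphate isomerase, was 2.29, 3.45 and 3.02 on the same 3 arrays and between 6.91 and 10.33 on the other 18. Ldha, which makes lactate from pyruvate, was less affected. Its low-yield values were 6.48, 8.82 and 10.08, and the latter pair was called P. Its 24 h Intermediate values were 12.00, 12.13 and 10.69 and its 4 h Intermediate values 10.28, 11.09 and 10.27, which overlap (difference 1.06 ± 0.97, adjusted p = 1.00). The 4 h High minus sham High difference of 2.71 ± 1.09 (adjusted p = 0.264) rests in part on the 6.48 of sham High 1, the other sham High value being 10.36.

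Hk2, the inducible hexokinase that commits glucose to the cell, had its highest group mean in 9 day Low cells. It was kept for testing only through that group, being called P on 3 arrays there and on 0 or 1 array of each of the other 7 groups, so that its differences from 9 day Low cells are descriptions. Its 9 day Low values were 6.89, 8.97 and 7.78, all called P. In 4 h High cells they were 3.96, 2.20 and 2.53, and in 24 h Intermediate cells 3.59, 6.36 and 4.45, none called P. The 9 day Low mean exceeded 4 h High by 4.98 ± 1.47. The fold between these means was at least 31.6, in the sense that Hk2 was not called P in 4 h High cells. That bound leaves out the spread, and the difference was 3.63 to 6.49 under the alternatives. The 9 day Low mean exceeded 24 h Intermediate by 3.08 ± 1.47, and sham Low, at 3.10 and 5.77, by 3.44 ± 1.64. Time and gate both differ in the first 2 of these. The array of ordinary yield in 9 day Intermediate, animal 9, was also high at 8.88 and called P. Tissue macrophage markers moved alongside, with a log2 summed level of 15.36 to 15.81 in 9 day Low, 14.32 to 14.75 in sham Low and 13.03 to 13.32 in 4 h High cells. Their part in the Hk2 differences was not tested.

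Of the other enzymes kept, Aldoa, Gapdh, Pgk1 and Pgam1 were called P on 18 to 20 arrays, and Hk1, Hk3, Pfkl and Pfkp on 9 to 14. Gapdh was 6.00 on 9 day Intermediate 8, not called P, against 10.91 to 13.43 on the 18 arrays of ordinary yield. None of these 8 had an F test adjusted p under 0.497.

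**Figure D3:**
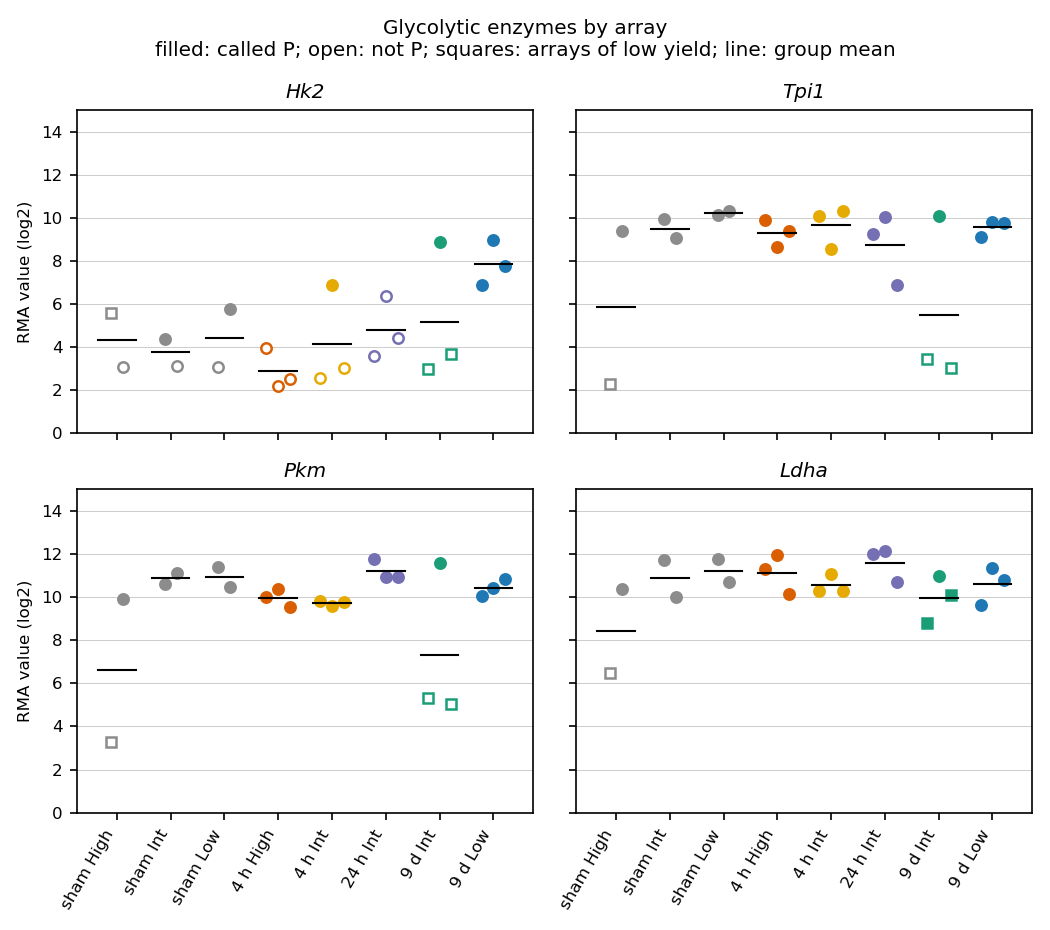
Deposited RMA value (vertical axis, log2) of 4 glycolytic enzymes on each of the 21 arrays, by group (horizontal axis); filled points were called P, open points were not, squares are arrays of low yield and lines are group means. Tpi1 and Pkm lie at 5.34 or below on the arrays of low yield, and Hk2 is called P on all 3 arrays of 9 day Low and on none of 4 h High.

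**Figure D4:**
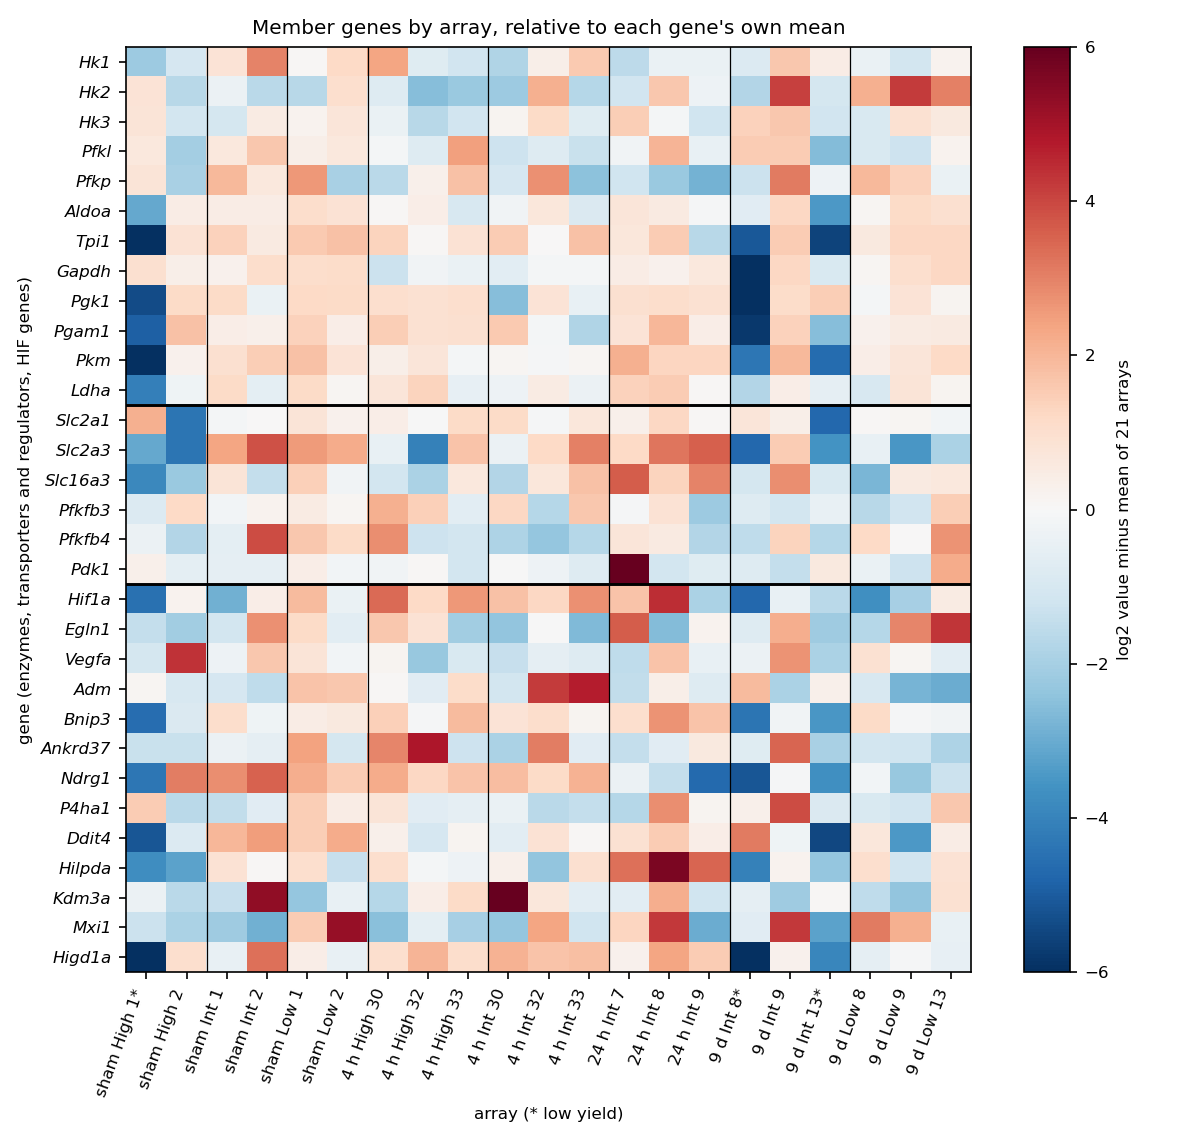
Value of each of the 31 kept members (rows, by role) on each of the 21 arrays (columns, by group; an asterisk marks low yield), as the log2 difference from that gene's own mean over the 21 arrays. Columns of low yield are blue for most enzymes, and the Hilpda row is reddest in 24 h Intermediate.

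By role, the members were counted in each comparison, with limma calls at adjusted p under 0.05. Injured Intermediate cells at 4 h gave 0 called of 31 against sham (0.216% of all genes called, 2 members at unadjusted p under 0.05), as did those at 24 h (0.456%, 3 members). At 9 days the Intermediate gate gave 0 called against sham (0.683%, 5 members), and the Low gate 0 (0.995%, 2 members). In the High gate 0 were called between 4 h and sham (0.432%, 5 members). Against the 7.06% to 14.7% of all genes at that unadjusted threshold in these comparisons, the members' 2 to 5 of 31 lie near the background.

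Between injured groups 1 member was called, in the 9 day against 24 h Intermediate comparison given above. None was called between 24 h and 4 h Intermediate (0.12% of all genes called), where 3 members and 7.23% of all genes had an unadjusted p under 0.05. Between the 2 gates at 4 h none was called (0.0%), with 0 members against 5.99% of all genes at that threshold, and between the 2 gates at 9 days none (0.623%), with 3 members against 20.4%. Time and gate both differ in the remaining 3. None was called in 9 day Low against 24 h Intermediate (4.3%; 3 members against 19.2%), 9 day Low against 4 h High (1.88%; 3 members against 15.6%) or 24 h Intermediate against 4 h High (0.0599%; 4 members against 8.07%). Between the gates at 4 h, 500 genes had an unadjusted p under 0.05 and none was called.

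Between 24 h and 4 h Intermediate, the medians of all 3 roles were above 0, without a member passing the test. Of the 12 enzymes 8 were above 0 with a median log2 difference of 0.68, and the 6 transporters and regulators had a median of 1.59. The oxygen sensing and HIF genes had a median of 0.82, and all genes tested had a median of -0.01. Values of 4 of the 12 enzymes, Pfkl, Gapdh, Pgk1 and Pkm, did not overlap and were higher at 24 h, where 6.65% of all genes did the same. On the deposited signals, after quantile normalization and after centring, the count was 2, 3 and 3, and Pkm was among them each time. Hilpda was higher and Ndrg1 lower without overlap under each of the 4 scalings, and 7.3% of all genes were lower without overlap. Against sham Intermediate cells, Pfkl, Gapdh and Pkm were lower at 4 h without overlap, as were 12.6% of all genes. Their 24 h minus sham Intermediate differences were -0.67, -0.21 and 0.34, and that of Pgk1 was 0.59.

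**Figure D5:**
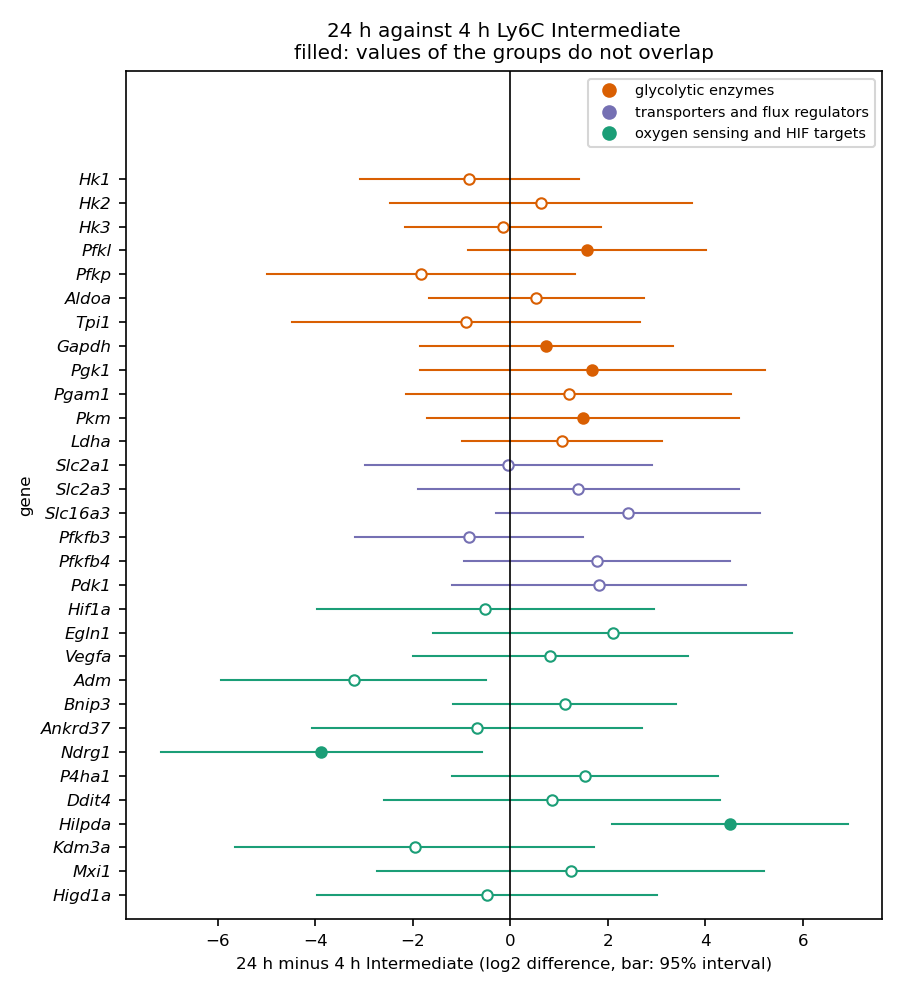
Difference of 24 h minus 4 h Intermediate for each of the 31 kept members (horizontal axis, log2; bars are 95% intervals, n = 3 and 3), by role; filled points mark genes whose values do not overlap between the groups. Hilpda (4.51) and Ndrg1 (-3.88) lie at the ends, and the intervals of all 12 enzymes cross 0.

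Against 24 h Intermediate, 9 day Low cells had lower transporters and HIF genes in the median. The medians were -0.89 for transporters and regulators and -1.08 for HIF genes, while all genes had 0.65. Both stayed below 0 on signals (-2.49 and -2.10), after quantile normalization (-1.40 and -1.73) and after centring (-2.54 and -2.73). The median of all genes moved as well, to 0.99, -0.13 and -0.99 in those settings. The enzymes had a median of 0.24, which turned to -0.70, -0.63 and -1.40 in those settings, so no direction is given for them. Slc2a3, Slc16a3, Hilpda and Higd1a were lower without overlap, where 10.9% of all genes were. The enzymes' medians in 9 day Intermediate cells also turned with the yield: against 9 day Low cells the median was -1.56, and without the arrays of low yield, when 1 Intermediate array is left, it was 0.99, with all 12 enzymes higher.

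Genes of the same pathways outside the 35 were counted from a further list. Of 26 other genes of sugar metabolism 20 were tested, and 1, Fbp1, passed the test. It encodes the gluconeogenic enzyme fructose bisphosphatase, abundant in kidney proximal tubule. Fbp1 was 11.40 and 10.98 in sham Intermediate and 4.22, 2.67 and 3.63 in 9 day Intermediate cells, a fall of 7.68 on the log2 scale (SE 1.66, adjusted p = 0.0437), where 0.683% of all genes were called; 14 of 31 alternatives kept the call. At 24 h it was 3.57, 2.25 and 6.71. Of 32 other HIF pathway genes 19 were tested, and 1, Vldlr, a lipoprotein receptor, passed. It was 6.35 and 11.85 in sham Low and 2.70, 2.57 and 2.69 in 9 day Low cells, a difference of -6.45 ± 1.45 (adjusted p = 0.0406), where 0.995% of all genes were called. Of 31 alternatives 17 kept the call, and without sham Low 2 the difference was -3.70 (adjusted p = 0.578). In the comparison of 9 day Low with sham Low the tubule markers' log2 summed level was 8.71 to 10.65 against 13.8, and the part of tubule transcripts in these 2 falls was not tested. In the other comparisons no gene of the 2 lists was called. Over the 12 comparisons 0 to 6 genes of each list had an unadjusted p under 0.05, against 5.99% to 20.4% of all genes. It was 6 of 19 HIF pathway genes in 24 h against sham Intermediate, where 9.63% of all genes had one. It was 6 of 20 sugar metabolism genes in 9 day Low against sham Low (10.5% of all genes) and against 4 h High (15.6%).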

How the data were processed

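Of 25 Affymetrix arrays, 21 in 8 groups were compared; the 3 sham 58 High arrays and 1 reference RNA were left out. The authors deposited RMA log2 values per probe set, and linear signal intensities with detection calls P, M or A, per the submitters' processing notes and the file headers (RMA and Affymetrix Expression Console; versions not given in the sources used here). No source states how the signals were computed. On each array the log2 values increased with log2 signal (Pearson r 0.562 to 0.94 across probe sets; slope 0.589 to 1.073 among values over 7). Array medians were 2.93 to 3.56 and 90th percentiles 5.49 to 8.33, so the arrays do not share one distribution, and their scaling is not fully known.

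Of 45101 probe sets, 34958 were assigned to 1 gene, 932 to several and 9211 to none in the platform annotation. Per gene, the probe set of highest mean over the 21 arrays was used. Genes called P on at least 2 arrays of 1 group were fitted as group means with limma 3.58.1 (R 4.3.3), with 13 residual and 3.927 prior degrees of freedom. Two-sided tests were adjusted by Benjamini-Hochberg over 8341 genes, for an F test and 12 comparisons, some of which share groups. The fit was tested on simulated data. The members and lists were chosen with earlier results of these data known; named in full are members past the threshold and the 4 of smallest F test p in each role. An "at least" fold sets the brighter group's mean against, for a group with no P call, the higher on each array of its own value and the lowest detected level. The labels name no source of replicates beyond a number, so p-values measure the spread between these arrays, whose number limits the precision. Numbers shared by gates were read as the same animal; residual correlations of such pairs were -0.0719 to 0.0601. Promoters came from the RefSeq GRCm38.p6 table. Alternatives were other scalings, filters, probe set rules, array weights, a replicate block, a yield covariate and leaving out arrays.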

Additional observations from a re-analysis of the deposited data

Results flagged for a closer look

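The 3 sham 58 High arrays, which enter no comparison, detected members that the 2 sham High arrays did not. All 3 carry the same label, so whether they are separate animals is not given, and their values are descriptions with no test. On each of them 29.4% to 33.6% of probe sets, and 71.4% to 79.2% of all genes tested, were called P. On the 2 sham High arrays 3.84% and 33.8% of all genes tested were, so detection differed over all genes and not in the members alone. Of the 31 kept members 25 were called P on all 3, including all 12 enzymes, and 12 of these were called P on neither sham High array. Among the members described in full there were 6 of this kind. The mean log2 value over the 3 arrays was 7.36 for Hk2 (sham High values 5.60 and 3.08) and 9.11 for Slc2a3 (sham High 5.21 and 3.88). It was 10.52 for Slc16a3 (sham High 4.87 and 6.49) and 7.468 for Pfkfb3 (sham High 5.24 and 7.24). None of these sham High values was called P. The mean was 8.866 for Pfkfb4 (sham High 6.30 and 4.88) and 6.651 for Hilpda (sham High 3.70 and 4.20). The yield of the sham High arrays was 1.99% and 12.9%, and its part in these differences was not tested. Hilpda on the sham 58 arrays, at 7.47, 6.42 and 6.06, also lay below all 3 values of 24 h Intermediate.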

How the results depend on the processing

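Of 29 log2 differences followed, 28 kept their direction under all 31 alternatives run on each. The exception was Higd1a in 9 day Low against 4 h High, which turned to 0.4482 with the mean of probe sets. All 29 were chosen from these data, for a small p or because they are described above. Those of Hif1a, Fbp1 and Vldlr were also added after seeing the data. A kept direction is therefore a description and not a test. The counts of members called stayed at 0 under every alternative for 4 h against sham Intermediate, 9 day against sham Low, 24 h against 4 h Intermediate, the 2 gates at 4 h and 24 h Intermediate against 4 h High. On the deposited signals the count was 0 for the F test and 0 for 9 day against 24 h Intermediate, in place of 1 and 1, and after quantile normalization 0 for the F test and 1 for 9 day Low against 24 h Intermediate. After centring each array it was 2 for the F test, 2 for 9 day against 24 h Intermediate and 3 for 9 day Low against 24 h Intermediate. With the mean of a gene's probe sets it was 1 for 9 day against sham Intermediate (Higd1a) and 1 for 9 day Low against 24 h Intermediate (Hilpda). With array weights it was 0 for the F test, 6 for 9 day against sham Intermediate, 7 for 9 day against 24 h Intermediate, 8 for the 2 gates at 9 days, 2 for 9 day Low against 24 h Intermediate and 1 for 9 day Low against 4 h High (Hk2); over all genes the calls between the 9 day gates went from 52 to 1759. Without the arrays of low yield it was 2 for the F test (Ndrg1 and Slc2a1), 1 for 4 h against sham High (Slc2a1, where sham High 2 alone is left), 1 for 24 h against sham Intermediate (Ndrg1), 0 for 9 day against 24 h Intermediate, 1 for 9 day Low against 24 h Intermediate (Hilpda) and 1 for 9 day Low against 4 h High (Hk2). With the yield as a covariate it was 1 for 9 day Low against 24 h Intermediate (Slc16a3). The cause of these shifts was not tested. The calls of Hk2 in this paragraph are descriptions, because Hk2 was kept for testing only through 9 day Low cells. Leaving out each array in turn gave 0 to 6 for 4 h against sham High (6 without sham High 2), 0 to 6 for 9 day against sham Intermediate, 0 to 8 for 9 day against 24 h Intermediate, 0 to 7 for the 9 day gates, 0 to 2 for 9 day Low against 24 h Intermediate, 0 to 1 for 9 day Low against 4 h High and 0 to 7 for the F test; the highest counts outside the first came without 9 day Intermediate 9, the one array of ordinary yield there, and with it gone the group holds only arrays of low yield.

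With the animal as a fixed replicate block, 0 members were called between the gates at 4 h and 0 between those at 9 days, where all genes called went from 52 to 3; a random replicate block (consensus correlation -0.0276) changed no count of members. Signal over background limits the weak probe sets: members not called P on an array have no measured level there.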

Other observations

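Differences between effects were tested after the data had been examined, as the Intermediate minus High difference of the 4 h against sham effect and the Intermediate minus Low difference of the 9 day against sham effect. No member passed in either limma test; all genes gave 1 and 0 calls. The smallest adjusted p of a member was 0.399, for Hilpda at 4 h (-4.50 ± 1.81). Pfkfb4 (-4.83 ± 2.04, adjusted p = 0.431) had the next smallest at 4 h, and Adm had an unadjusted p of 0.019 at 9 days (5.28 ± 2.04, adjusted p = 0.565). The sham High and 9 day Intermediate groups hold the arrays of low yield, and their part was not tested.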
